A study of Mus musculus with 8 samples.

Results

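The motile cilium axoneme genes described here are 57 of the 15728 genes in a table of gene-level CAGE expression from mouse lung. They were chosen by symbol alone: dynein heavy, intermediate and light chains, dynein assembly factors, tektins, radial spoke heads, the Spag and Spata families and a list of single genes from Mns1 to Ccdc153, kept where the mean over the 8 libraries reached 1 CPM (counts per 1000000 reads of the library). Of 59 matching rows, Dnahc7b at a mean of 1.04 CPM and Dnahc1 at 1.16 CPM were the members closest to the limit, and Spata1 at 0.784 CPM was the closest of the 2 left out. Tubb4b, which the choice also names, has no row under that symbol. Tubb2c, an older symbol of the same gene in RefSeq, is not a member and had 272 ± 40.1 CPM in wild type and 215 ± 17.5 CPM in knockout (SD, n = 4), a fall with a limma adjusted p of 0.0303 that was lost when replicate 3 or 4 of wild type or replicate 2 of knockout was left out, where the adjusted p reached 0.0878. The table uses older spellings throughout, so that Dnahc stands for Dnah, Dnalc1 and Dnalc4 for Dnal1 and Dnal4, and Spag6 carries the identifier of Spag6l.

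The label fits 40 of the members, which have a known place in the motile axoneme or the assembly of its dynein arms. A further 9 are linked to cilia in other ways, some only loosely, as Spata18, known from mitochondria, and Spata7, known from the photoreceptor cilium; with them the ciliary members number 49. The other 8 (Spag7, Spag9, Spata2, Spata2L, Spata5, Spata5l1, Spata13 and Spata24) share only the start of their name, and are counted apart where it matters.

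Lung RNA came from 4 wild type libraries and 4 libraries of triply n/i/eNOSs-/- mice, which lack the neuronal, inducible and endothelial nitric oxide synthase. All 8 were on the C57BL/6J background, 4 weeks old and labelled unexposed, in a series on nitric oxide synthases in emphysema. Whether a library is 1 mouse or a pool, and whether the genotypes were littermates, the sources used here do not give, so p-values measure the spread between these libraries. CAGE (cap analysis of gene expression) reads the capped 5′ end of a transcript, so a level in CPM does not grow with transcript length.

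Libraries held 15598154 to 18593913 reads in wild type and 13014134 to 15096188 in knockout, and 3 reads correspond to 0.161 to 0.231 CPM. Nos3, the endothelial synthase and the targeted gene looked at here, had 18.18, 22.75, 19.8 and 18.59 CPM in wild type and 5.56, 8.32, 8.83 and 6.76 CPM in knockout (limma adjusted p = 4.58e-05). The genotypes did not overlap and some Nos3 signal stayed in every knockout library. Which part of the gene is deleted the sources used here do not say. Lung markers were present in all libraries, with the 10 alveolar type 2 markers summing to at least 51343 CPM.

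A motile cilium is a membrane-covered shaft of microtubule doublets around a central pair. Outer and inner dynein arms on each doublet slide it against its neighbour, the 96 nm ruler proteins set the spacing of the arms, and radial spokes and the central apparatus coordinate their stroke. In the lung, multiciliated cells of the conducting airways carry these cilia, which move mucus upward. Their genes are known to be switched on together by the forkhead factor Foxj1 and by RFX factors, which bind a sequence close to the start of many ciliary genes.

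Promoter windows of 300 bases, from 250 before to 49 after the annotated start, are shown, among members with a window, for the 5 with the smallest adjusted p of those lower in the knockout (Tmem212, Ccdc39, Ccdc113, Ccdc151 and Ccdc78) and the 2 with the smallest of those higher (Tekt5 and Mns1), so that the start regions of falling and rising genes can be read side by side. Sequences are those of RefSeq on GRCm38.p6, 5′ to 3′ on the gene's strand, and capitals mark an RFX half-site, GTTGCC or GTTACC on either strand (read as GGCAAC or GGTAAC from the other). The windows are Tmem212 at chr3:27896319-27896618 (minus), Ccdc39 at chr3:33844261-33844560 (minus), Ccdc113 at chr8:95533850-95534149 (plus), Ccdc151 at chr9:22002585-22002884 (minus), Ccdc78 at chr17:25786330-25786629 (plus), Tekt5 at chr16:10395406-10395705 (minus) and Mns1 at chr9:72438279-72438578 (plus).
Tmem212: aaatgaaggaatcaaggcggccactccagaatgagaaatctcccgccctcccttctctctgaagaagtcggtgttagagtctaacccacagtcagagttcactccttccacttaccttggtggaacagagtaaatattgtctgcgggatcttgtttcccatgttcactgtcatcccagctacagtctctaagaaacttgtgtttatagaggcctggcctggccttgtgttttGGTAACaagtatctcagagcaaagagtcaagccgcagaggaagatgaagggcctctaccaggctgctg
Ccdc39: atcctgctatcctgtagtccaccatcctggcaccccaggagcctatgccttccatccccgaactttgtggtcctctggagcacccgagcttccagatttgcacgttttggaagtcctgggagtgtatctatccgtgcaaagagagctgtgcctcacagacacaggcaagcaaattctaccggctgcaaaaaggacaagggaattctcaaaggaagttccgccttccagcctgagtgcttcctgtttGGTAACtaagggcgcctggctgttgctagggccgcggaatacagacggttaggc
Ccdc113: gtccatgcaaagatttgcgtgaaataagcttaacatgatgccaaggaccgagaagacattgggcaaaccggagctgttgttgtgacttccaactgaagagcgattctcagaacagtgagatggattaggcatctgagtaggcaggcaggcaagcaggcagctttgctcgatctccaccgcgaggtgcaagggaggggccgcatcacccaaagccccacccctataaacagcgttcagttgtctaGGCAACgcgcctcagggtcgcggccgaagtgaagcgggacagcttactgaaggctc
Ccdc151: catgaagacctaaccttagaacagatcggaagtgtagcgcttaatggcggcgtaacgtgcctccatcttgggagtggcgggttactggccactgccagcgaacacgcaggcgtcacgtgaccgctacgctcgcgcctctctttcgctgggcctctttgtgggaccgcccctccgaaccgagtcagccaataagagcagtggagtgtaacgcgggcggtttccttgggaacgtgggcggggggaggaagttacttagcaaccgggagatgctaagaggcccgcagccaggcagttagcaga
Ccdc78: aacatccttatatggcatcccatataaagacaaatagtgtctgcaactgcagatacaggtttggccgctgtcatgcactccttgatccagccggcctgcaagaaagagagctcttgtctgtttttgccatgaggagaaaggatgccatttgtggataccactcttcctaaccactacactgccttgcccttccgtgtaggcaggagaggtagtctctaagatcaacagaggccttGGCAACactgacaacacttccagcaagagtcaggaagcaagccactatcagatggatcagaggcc
Tekt5: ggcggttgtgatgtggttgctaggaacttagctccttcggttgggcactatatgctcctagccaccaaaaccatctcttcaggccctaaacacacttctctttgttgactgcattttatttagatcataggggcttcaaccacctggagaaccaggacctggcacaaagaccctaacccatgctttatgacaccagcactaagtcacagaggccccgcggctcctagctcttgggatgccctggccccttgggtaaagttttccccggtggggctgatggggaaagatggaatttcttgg
Mns1: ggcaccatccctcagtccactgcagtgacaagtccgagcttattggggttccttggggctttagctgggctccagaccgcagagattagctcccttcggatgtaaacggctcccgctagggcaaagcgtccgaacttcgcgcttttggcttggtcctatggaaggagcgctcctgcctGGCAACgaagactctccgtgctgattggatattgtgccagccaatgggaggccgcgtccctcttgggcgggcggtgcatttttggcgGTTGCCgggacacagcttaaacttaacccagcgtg

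In Tmem212, Ccdc39, Ccdc113 and Ccdc78, all lower, a single half-site begins 18, 4, 6 and 15 bases before the start. Ccdc151, lower too, has neither spelling in its window, though it holds GTTACT and, on the other strand, GTTGCT, which were not counted. Mns1, which rose, holds 2 half-sites, 72 bases before and 15 bases after the start. Tekt5, which rose more, has no counted half-site but holds GTTGCT.

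Windows were found for 41 of the 49 ciliary members, 45 windows in all. A half-site occurred in 24 of the 45 windows (53.3%), against 18.6% of the 13360 windows of all genes tested. Among ciliary members that fell in the knockout, 14 of 17 windows held one (82.4%), or 13 of 15 genes, all but Ccdc151 and Rsph9. Members that were not called had one in 8 of 23 windows (34.8%) and those that rose in 2 of 5 (40%). Over all genes tested the same shares were 19.5% for genes that fell, 18.2% for genes not called and 19.3% for genes that rose. The share of windows with these exact letters thus differed between falling and other ciliary members and was nearly flat over all genes. Close spellings such as GTTGCT and GTTACT were not counted. Most members not called and without a counted half-site hold GTTGCT or GTTACT on either strand. They are Dnahc5, Dnahc6, Dnahc9, Dnahc12, Dnalc1, Dnalc4, Ccdc114, Rsph3a, Spata7, Spata17 and Spata18. Lacking the counted letters therefore does not mean lacking a near form. The gap between falling and not-called members is shown for the exact letters only. These are small counts described with no test.

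Half-sites of the members also lay near the start. Of 35 half-sites, counted once per window, 20 (57.1%) began between 30 bases before and 49 after the start, a stretch that makes up 26.7% of the window and that held 28% of the half-sites of all genes tested. The median position was 20 bases before the start for members and 94 for all genes. Windows of Tekt2 overlap, so its sites count more than once. By these exact letters, only Spag16 and Tekt1 held 2 half-sites in opposite orientation within 20 bases, 4.44% of windows against 0.501% for all genes tested. Pairs that include a close spelling, such as GTTGCT or GTTACT, were not counted. Among members that fell, Ccdc151, Dnahc7b, Dnaic2 and Tekt2 hold such a pair. So do Dnahc6, Tekt4, Ccdc103, Rsph3b and Hydin, which were not called, and Dnaic1, which rose. How common pairs are in a wider sense is therefore not given here. Forkhead letters (TGTTTAC or TGTTTGC, either strand) occurred in 17.8% of the members' windows and 6.5% of all. None of the 8 windows of the members that share only a name prefix held a half-site, while 67.4% of windows of other axoneme genes and 48.3% of intraflagellar transport windows did. A match of letters does not show that a factor binds.

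**Figure D1:**
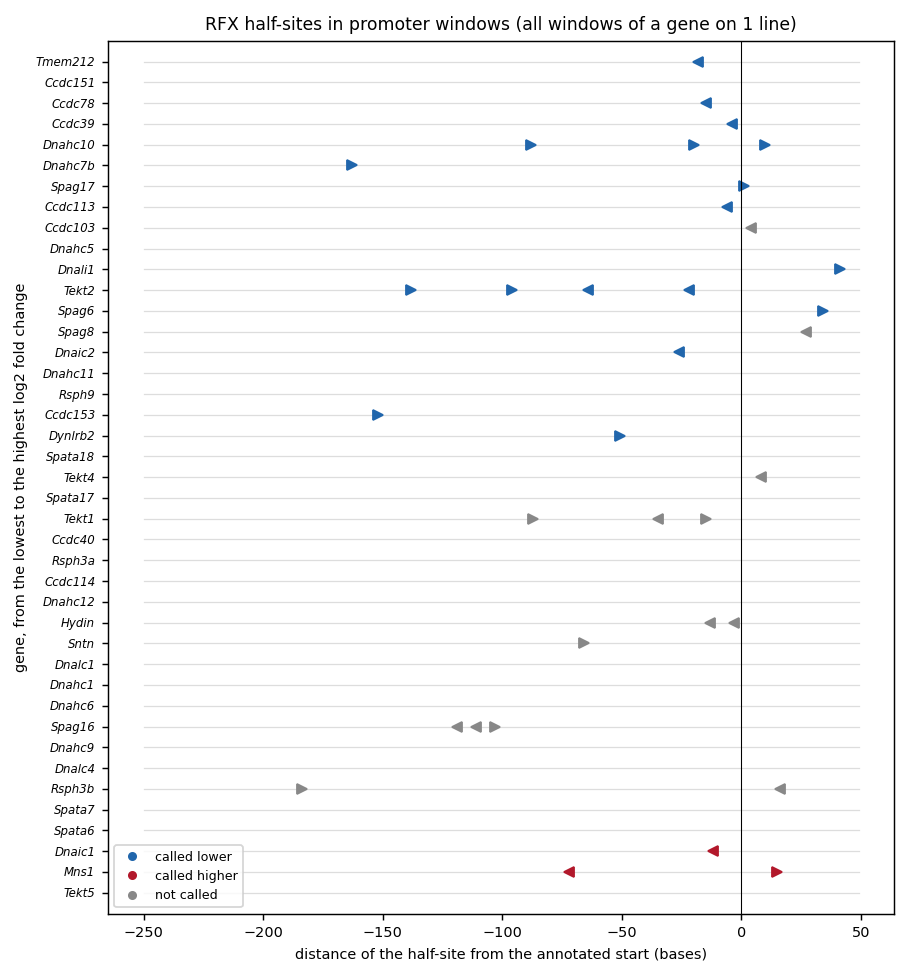
Position of each RFX half-site (triangles, pointing along its strand) relative to the annotated start for the 41 ciliary members with a promoter window, ordered by log2 fold change and coloured by call; grey lines span the 300 bases. Only GTTGCC and GTTACC, on either strand, are marked. Of 35 half-sites, 20 begin between 30 bases before and 49 after the start. A marked half-site is present in 13 of 15 falling genes, against 8 of 22 genes not called. Most of the not-called genes without a mark hold GTTGCT or GTTACT, which are not marked.

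In the knockout lung 20 of the 57 members were lower and 5 were higher, and 32 did not pass the test (limma on log2(CPM + 0.5), adjusted p under 0.05 over all genes tested). Of all 14065 genes tested, 30.9% were called, 14.3% lower and 16.6% higher, so the members' 35.1% lower stood above the background and their 8.77% higher below it. The median log2 fold change of the members, knockout minus wild type, was -0.21, against 0.01 for all genes tested, and 41 of 57 were negative. Genotypes did not overlap for 23 members, 18 of them lower. Of all genes tested 31.2% showed no overlap, 14.3% lower and 16.8% higher.

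Most differences were small: apart from Tmem212 at -2.45, every member lay between -0.89 and 0.84 on the log2 scale. Of the 49 ciliary members, 19 were lower and 4 higher, with a median of -0.24. Without Tmem212 the count was 18 lower and the median still -0.24. Of the 8 members that share only a name prefix, 1 was lower (Spata24) and 1 higher (Spag7), with a median of 0.06. In whole lung, fewer ciliated cells and less RNA per ciliated cell cannot be told apart.

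All 57 members passed the filter of at least 1 CPM in at least 4 libraries, but Dnahc7b did so in 5 libraries, all 4 of wild type among them, and Dnahc1 also in 5. Calls were fewer where reads were few. Of 17 ciliary members with a mean below 5 CPM, 5 were lower and 0 higher, where 22.9% of all genes at that level were called. Of 17 members between 5 and 20 CPM, 7 were lower and 3 higher, where 28.7% of all genes were called. Of 15 members at 20 CPM and above, 7 were lower and 1 higher, where 35.6% of all genes were called.

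How the call count depended on single libraries was uneven. Leaving out wild type replicate 4 left 14 members lower, and leaving out wild type replicate 2 gave 21. Wild type replicate 2 had the lowest value of its genotype in 29 of the 49 ciliary members, and knockout replicate 2 in 22. When the totals left out Scgb1a1 and Sftpc, the most abundant genes, 22 members were lower and 4 higher. That scaling turned the split of all calls from 2341 higher and 2010 lower to 1862 higher and 2566 lower, or 13.2% higher and 18.2% lower.

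**Figure D2:**
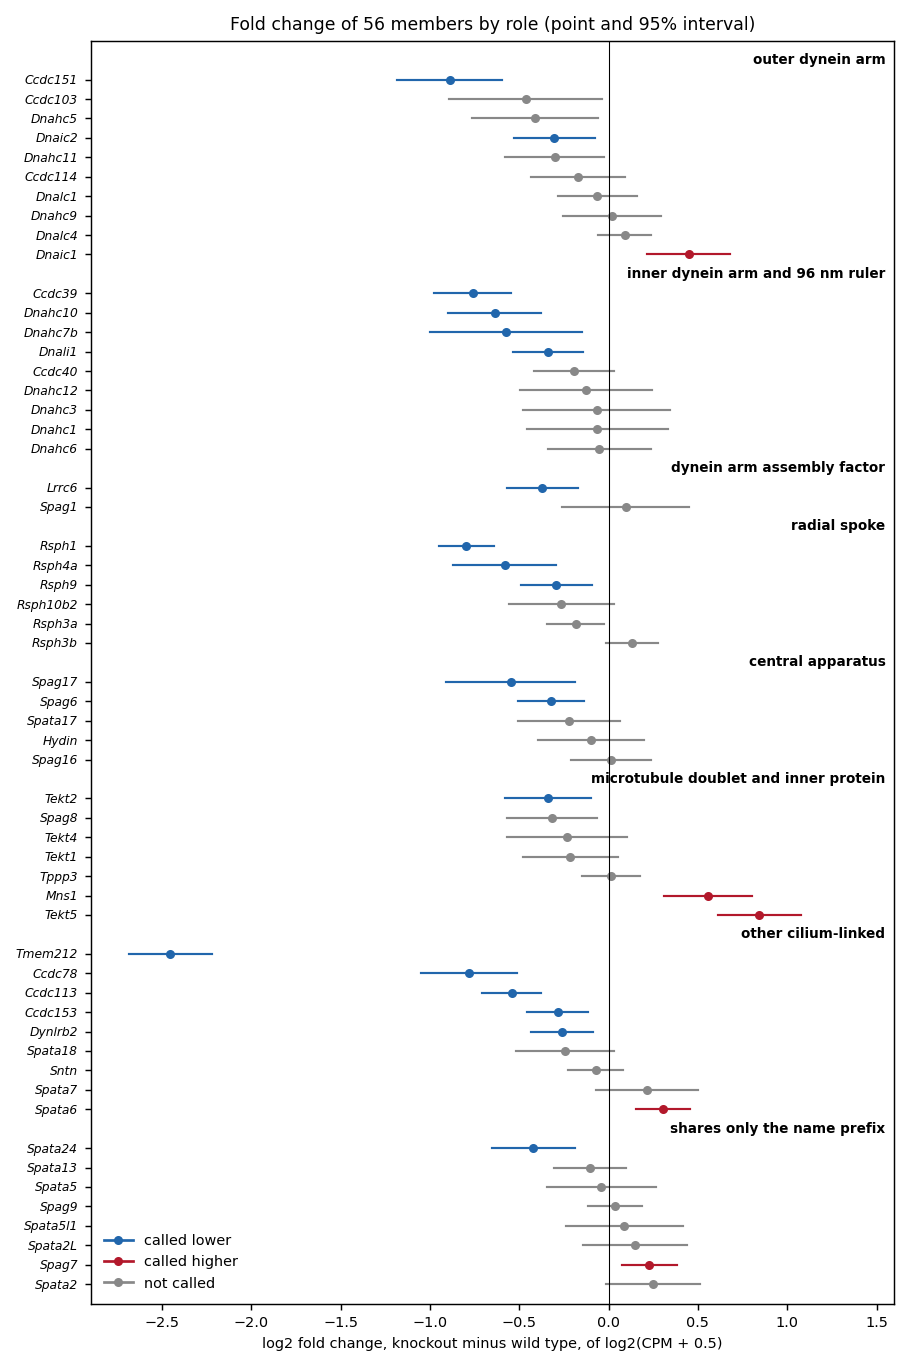
Log2 fold change (knockout minus wild type, of log2(CPM + 0.5)) of 56 members by role, points with 95% intervals, 4 libraries per genotype, coloured by call. Most points lie left of 0 and within 1 log2 unit of it, Tmem212 stands alone at -2.45, and Tekt5 at 0.84 is the highest.

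Tmem212, a membrane protein gene whose transcript marks ciliated cells, fell most. It had 109.21, 93.47, 102.02 and 108.79 CPM in wild type and 18.88, 16.43, 16.29 and 22.82 CPM in knockout. The highest knockout library lay far below the lowest wild type one. The means were 103 ± 7.38 and 18.6 ± 3.05 CPM (SD, n = 4), a ratio of 5.56 and a log2 fold change of -2.45 ± 0.105 (SE, limma adjusted p = 3.78e-08).

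Of the 9 members linked to the cilium in other ways, Tmem212 included, 5 were lower (55.6%, against 14.3% of all genes tested) and 1 was higher (3 lower without wild type replicate 1). Ccdc113, a ciliary coiled-coil protein, had 25.6, 22.37, 25.75 and 25.2 CPM in wild type and 17.02, 16.16, 16.42 and 17.67 CPM in knockout. No knockout library reached a wild type one, and the log2 fold change was -0.54 ± 0.0753 (limma adjusted p = 0.000476). Ccdc78, a component of the deuterosomes on which multiciliated cells build their centrioles, had 5.86, 5.86, 6.93 and 5 CPM in wild type and 3.44, 2.84, 3.45 and 3.15 CPM in knockout. That was 1.84-fold lower in the knockout, with no overlap (log2 fold change -0.78 ± 0.123, limma adjusted p = 0.000976). Haghl, which starts within 1 kb of Ccdc78 on the opposite strand, was also lower (10.2 to 8.39 CPM, limma adjusted p = 0.0401), and the sources used here do not say whether counting used the strand.

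Dynlrb2, a dynein light chain, was the most abundant gene of this group. It had 159.93, 151.5, 165.59 and 176.75 CPM in wild type and 127.91, 124.22, 139.88 and 154.99 CPM in knockout. The highest knockout library exceeded the lowest wild type one. The fall of -0.26 ± 0.0786 on the log2 scale (limma adjusted p = 0.0278) lost its call without any one of wild type replicates 1, 3 and 4 and knockout replicates 1, 2 and 3, where the adjusted p reached 0.076. Ccdc153, a part of the nexin-dynein regulatory complex, fell from 134 ± 6.33 to 110 ± 12.1 CPM with no overlap (limma adjusted p = 0.0178, and 0.0551 without wild type replicate 1).

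Spata6, known from the neck of the sperm tail, rose. Its levels were 25.72, 23.34, 26.85 and 24.94 CPM in wild type and 30.01, 31.04, 31.74 and 31.97 CPM in knockout. All knockout libraries were above all wild type ones (log2 fold change 0.30 ± 0.0686, limma adjusted p = 0.0072). Sntn, which encodes sentan of the ciliary tip, stayed near one level, with 28.47, 24.31, 27.14 and 26.41 CPM in wild type and 24.71, 25.16, 25.12 and 25.89 CPM in knockout. Its log2 fold change of -0.07 had a 95% interval from -0.23 to 0.08. Spata18 (16.7 to 13.9 CPM) and Spata7 (3.76 to 4.47 CPM) did not pass the test.

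**Figure D3:**
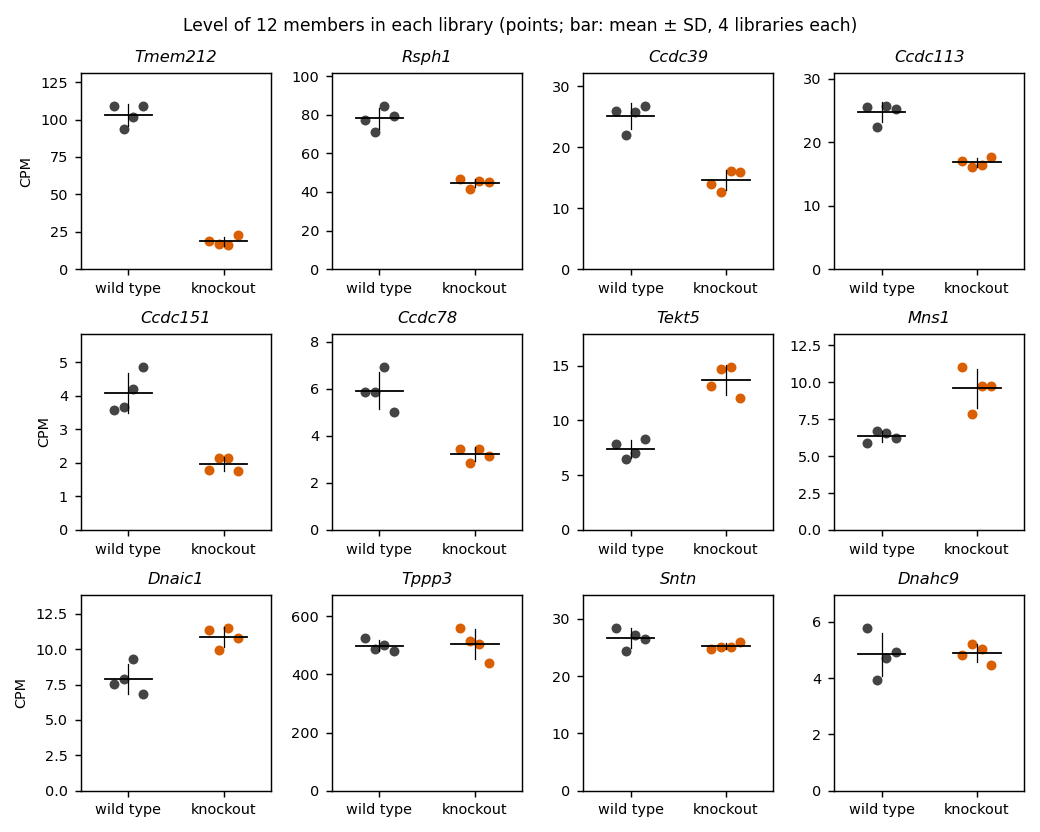
CPM of 12 members in each library (points) with mean and SD (bars) for 4 wild type and 4 knockout libraries, each axis starting at 0. Tmem212, Rsph1, Ccdc39, Ccdc113, Ccdc151 and Ccdc78 are lower in every knockout library, Tekt5, Mns1 and Dnaic1 higher in every one, and Tppp3, Sntn and Dnahc9 overlap.

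Among the 6 radial spoke members 3 were lower (50%, against 14.3% of all genes tested) and 0 higher (2 to 3 lower when 1 library was left out). All 3 encode proteins of the spoke head. Rsph1 had 77.57, 71.21, 84.7 and 79.5 CPM in wild type and 46.63, 41.79, 45.55 and 45.26 CPM in knockout. These values were well apart, with means of 78.2 ± 5.57 and 44.8 ± 2.1 CPM and a log2 fold change of -0.80 ± 0.0692 (limma adjusted p = 1.84e-05). Rsph4a had 7.18, 5.81, 7.85 and 7.05 CPM in wild type and 4.5, 3.58, 5.18 and 4.76 CPM in knockout. Its highest knockout value stayed under its lowest wild type value (log2 fold change -0.58 ± 0.132, limma adjusted p = 0.00725). Rsph9 had 39.53, 32.75, 42.38 and 40 CPM in wild type and 29.28, 29.48, 33.06 and 33.73 CPM in knockout. Here wild type replicate 2 lay below knockout replicates 3 and 4, and the log2 fold change was -0.29 ± 0.0903 (limma adjusted p = 0.0298). That call was lost when any of replicates 1, 3 and 4 of wild type or 1 and 2 of knockout was left out, where the adjusted p reached 0.0866, and Mrps18a next to Rsph9 was higher (85.1 to 97.3 CPM, limma adjusted p = 0.0424).

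Rsph3a and Rsph3b, near-identical genes for a protein of the spoke stalk, had log2 fold changes of opposite sign, and neither passed the test. Rsph3a had 50.42, 47.65, 53.81 and 50.58 CPM in wild type and 42.33, 40.98, 48.65 and 46.1 CPM in knockout (log2 fold change -0.19, adjusted p = 0.0743, and 0.0307 with totals that leave out Scgb1a1 and Sftpc). Rsph3b had 42.7, 41.36, 46.59 and 45.58 CPM in wild type and 45.11, 48.82, 48.72 and 50.64 CPM in knockout (log2 fold change 0.13, adjusted p = 0.154). Because counting could split reads between the copies, each single value is uncertain. Summed, they had 94.7 ± 4.81 CPM in the 4 wild type and 92.8 ± 4.97 CPM in the 4 knockout libraries. Rsph10b2 had 3.99 and 3.22 CPM and did not pass the test.

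Inner dynein arm and ruler genes made up 9 members, and all 9 log2 fold changes were negative. Of these, 4 were lower (44.4%, against 14.3% of all genes tested) and 0 higher (3 to 4 lower when 1 library was left out). Ccdc39, which with Ccdc40 forms the 96 nm ruler, had 25.9, 22, 25.87 and 26.8 CPM in wild type and 14.04, 12.58, 16.08 and 15.91 CPM in knockout. No values overlapped, and the log2 fold change was -0.76 ± 0.099 (limma adjusted p = 0.000303). Its partner Ccdc40 had 28.11, 22.05, 29.33 and 29.11 CPM in wild type and 23.85, 21.77, 22.5 and 26.28 CPM in knockout. Wild type replicate 2 fell among the knockout libraries, the log2 fold change was -0.19 (95% interval -0.42 to 0.03, adjusted p = 0.175), and without that library the adjusted p was 0.0363. The intervals of Ccdc39 (-0.98 to -0.54) and Ccdc40 did not meet; the difference itself was not tested.

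Dnahc10, a heavy chain of an inner arm, had 5.26, 6.13, 5.83 and 6.6 CPM in wild type and 3.97, 3.58, 4 and 3.07 CPM in knockout. That is a ratio of 1.63 with no overlap (log2 fold change -0.64 ± 0.119, limma adjusted p = 0.00267). Dnali1, an inner arm light intermediate chain, had 23.57, 21.14, 26.33 and 22.95 CPM in wild type and 17.69, 18.53, 16.98 and 20.59 CPM in knockout. The closest libraries of the genotypes nearly touched (log2 fold change -0.34 ± 0.0898, limma adjusted p = 0.0149). Dnahc7b had 1.38, 1.13, 1.67 and 1.15 CPM in wild type and 0.73, 1.15, 0.55 and 0.54 CPM in knockout. At these levels a value rests on few reads, and knockout replicate 2 equalled wild type replicate 4. The adjusted p of 0.0427 rose to as much as 0.118 when 1 library was left out (each of 7 of the 8 libraries ended the call, all but knockout replicate 2). Dnahc7b has close copies in the genome, so its reads are uncertain. The other 4 (Dnahc1, Dnahc3, Dnahc6 and Dnahc12) had means from 1.13 to 6.98 CPM and did not pass the test.

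In the outer dynein arm 2 of 10 members were lower and 1 was higher (1 to 4 lower when 1 library was left out). With 30% called, this group was near the 30.9% of all genes tested, of which 14.3% were lower. Ccdc151, a subunit of the complex that docks outer arms to the doublet, had 3.59, 3.66, 4.21 and 4.87 CPM in wild type and 1.79, 2.16, 2.14 and 1.77 CPM in knockout. Its ratio of 2.08 was the largest after Tmem212, with no overlap (log2 fold change -0.89 ± 0.135, limma adjusted p = 0.000789). The 2 intermediate chains went opposite ways. Dnaic2 had 13.76, 13.45, 17.09 and 16.6 CPM in wild type and 11.99, 10.89, 12.91 and 12.99 CPM in knockout. Its log2 fold change of -0.30 ± 0.104 (limma adjusted p = 0.0446) lost its call once replicate 3 or 4 of wild type or replicate 1, 2 or 3 of knockout was left out, with an adjusted p of up to 0.123. Dnaic1 had 7.54, 7.91, 9.3 and 6.8 CPM in wild type and 11.33, 9.94, 11.52 and 10.76 CPM in knockout. Every knockout library was higher (log2 fold change 0.45 ± 0.107, limma adjusted p = 0.00925), and Enho, which overlaps it on the opposite strand, was higher as well (22.7 to 28.9 CPM, limma adjusted p = 0.00864).

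The outer arm heavy chains Dnahc5, Dnahc9 and Dnahc11 did not pass the test. Dnahc5 went from 4.55 ± 0.793 to 3.3 ± 0.659 CPM (adjusted p = 0.0714, and 0.0438 without wild type replicate 2), and Dnahc11 from 4.14 ± 0.334 to 3.28 ± 0.48 CPM with no overlap (adjusted p = 0.0911). Dnahc9 had 4.85 ± 0.768 and 4.89 ± 0.323 CPM. Over all 9 dynein heavy chains, inner and outer, 2 were lower and 0 higher, and the median log2 fold change was -0.13. That is 22.2% called, against 30.9% of all genes tested. Dnalc4, a light chain, had 29.13, 27.16, 28.12 and 29.94 CPM in wild type and 29.08, 29.55, 31.4 and 31.73 CPM in knockout, a log2 fold change of 0.09 (95% interval -0.06 to 0.24). Ccdc103 had 5.21 ± 1.38 and 3.61 ± 0.867 CPM, with an adjusted p of 0.0922 that was 0.0325 without wild type replicate 2 and 0.0393 without knockout replicate 4. Ccdc114 and Dnalc1 had means from 7.19 to 8.95 CPM and did not pass the test.

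Of the 2 cytoplasmic assembly factors for dynein arms, Lrrc6 was lower. Its values were 7.66, 8.39, 8.03 and 8.01 CPM in wild type and 5.83, 5.75, 6.49 and 6.3 CPM in knockout. The genotypes were apart by more than the spread within either (log2 fold change -0.37 ± 0.0905, limma adjusted p = 0.0103). Spag1 had 1.67, 1.24, 1.79 and 1.35 CPM in wild type and 1.52, 1.42, 2.14 and 1.54 CPM in knockout, fully overlapping, with a 95% interval of its log2 fold change from -0.26 to 0.45.

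For the central apparatus 2 of 5 members were lower (40%, against 14.3% of all genes tested) and 0 higher. Spag6 had 11.6, 11.78, 12.47 and 12.82 CPM in wild type and 10.14, 9.67, 8.83 and 9.91 CPM in knockout. These narrow groups did not overlap (log2 fold change -0.32 ± 0.084, limma adjusted p = 0.0141). Spag17 had 5.5, 5.97, 4.85 and 5.26 CPM in wild type and 2.45, 3.25, 4.49 and 4.23 CPM in knockout. The knockout values were spread over almost 2 CPM, and the log2 fold change of -0.55 ± 0.164 (limma adjusted p = 0.0263) lost its call when any of replicates 1, 2 and 4 of wild type or replicate 2 of knockout was left out, where the adjusted p reached 0.0733. Spag16, the most abundant, had 27.69, 25.55, 25 and 25.96 CPM in wild type and 23.38, 23.8, 26.29 and 32.66 CPM in knockout, with a 95% interval from -0.21 to 0.24. Hydin and Spata17, at 3.92 to 4.68 CPM, did not pass the test.

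Proteins of the doublet microtubules and their lumen split in direction: of 8 members 2 were higher and 2 lower (1 to 3 lower when 1 library was left out). Each is 25%, against 16.6% higher and 14.3% lower over all genes tested. Tekt5, a tektin known from the sperm flagellum, had 7.89, 6.51, 6.99 and 8.27 CPM in wild type and 13.12, 14.74, 14.91 and 12.06 CPM in knockout. It was 1.85-fold higher with no overlap (log2 fold change 0.84 ± 0.107, limma adjusted p = 0.000254). Mns1, an inner protein of the doublet, had 5.86, 6.67, 6.58 and 6.22 CPM in wild type and 11.06, 7.84, 9.73 and 9.76 CPM in knockout. It was 1.52-fold higher, again with no overlap (log2 fold change 0.56 ± 0.112, limma adjusted p = 0.00402). Tex9, which overlaps Mns1 on the opposite strand, was lower (5.71 to 3.45 CPM, limma adjusted p = 0.00158).

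Tekt2 had 11.36, 11.03, 14.32 and 14.55 CPM in wild type and 10.27, 9.2, 10.35 and 9.99 CPM in knockout. Wild type replicates 1 and 2 sat close to the knockout, and the log2 fold change of -0.34 ± 0.109 (limma adjusted p = 0.0347) lost its call when replicate 3 or 4 of wild type or 2, 3 or 4 of knockout was left out, where the adjusted p reached 0.098. Tekt1, Tekt4 and Spag8 were not called. Spag8 had 6.69 ± 0.413 and 5.3 ± 0.758 CPM (adjusted p = 0.0541, and 0.0139 without knockout replicate 1).

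Tppp3, a tubulin polymerisation promoting protein, was the most abundant member. Its values were 524.29, 487.2, 500.59 and 480.76 CPM in wild type and 560.74, 513.11, 505.43 and 438.6 CPM in knockout. The knockout libraries spanned the wild type ones (log2 fold change 0.01, 95% interval -0.15 to 0.18). It weighs most in the summed level of the ciliary members, which spanned 1449.1 to 1575.1 CPM in wild type and 1276 to 1345.8 CPM in knockout. Without it the sums were 961.9 to 1075.4 and 762.9 to 879.5 CPM. With Tppp3 kept and Tmem212 left out, the sums were 1355.6 to 1469.3 CPM in wild type and 1259.6 to 1326.9 CPM in knockout, a narrower gap. In each case every knockout library was below every wild type library.

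**Figure D4:**
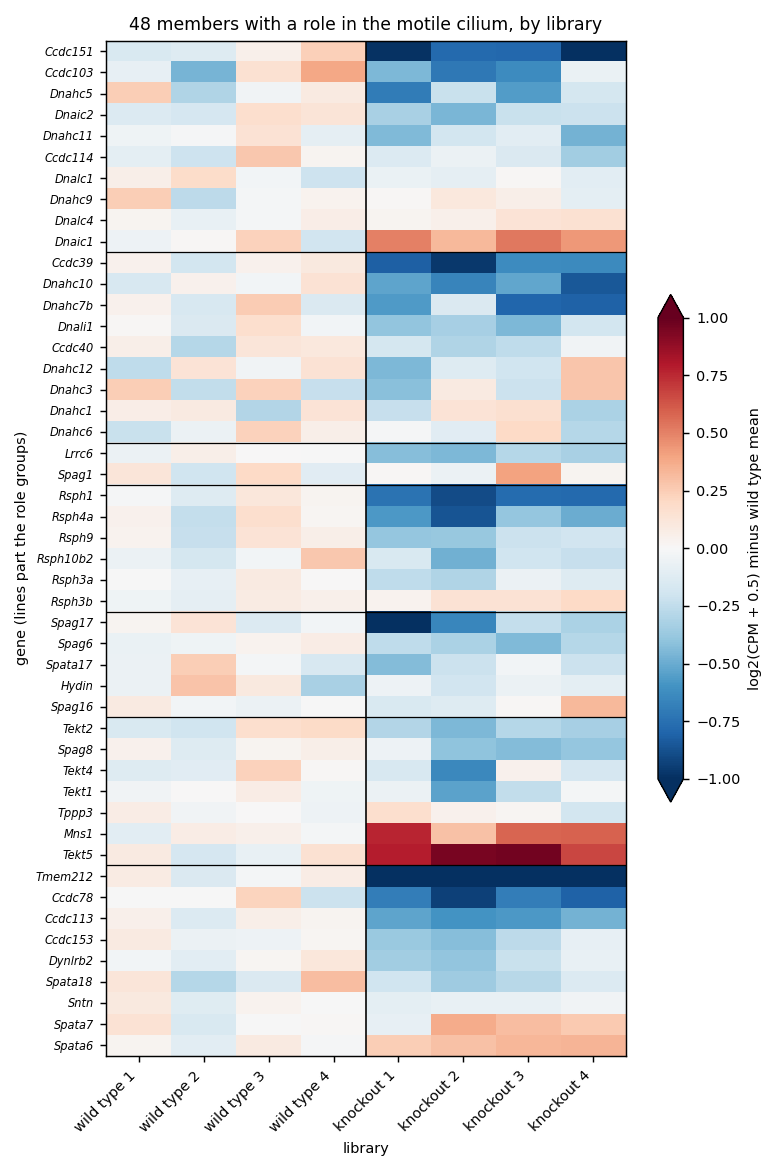
Level of 48 ciliary members in each library as log2(CPM + 0.5) minus the wild type mean (blue lower, red higher, limits at -1 and 1), with lines between role groups. The knockout columns are mostly blue, Tekt5, Mns1, Dnaic1 and Spata6 are red in all 4, and among the wild type columns replicate 2 is the bluest.

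Library by library, the shift was alike in size in all 4 knockout libraries. The median over the 49 ciliary members, relative to the wild type mean, was -0.26, -0.31, -0.22 and -0.19 in knockout replicates 1 to 4 and 0.00, -0.12, 0.05 and 0.02 in wild type. The lowest wild type median, that of replicate 2, still lay above all 4 knockout medians. The spread within a genotype was near that of other genes: the median coefficient of variation was 10.7% in wild type and 10.9% in knockout for the ciliary members and 8.75% and 10.7% for all genes tested.

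Members that share only a name prefix showed no common direction. Spata24 had 15.25, 13.66, 17.26 and 17.5 CPM in wild type and 10.86, 10.95, 11.59 and 13.6 CPM in knockout (log2 fold change -0.42 ± 0.106, limma adjusted p = 0.0121). Spag7 had 42.23, 46.57, 44.92 and 41.16 CPM in wild type and 51.8, 53.15, 53.55 and 46.8 CPM in knockout (log2 fold change 0.23 ± 0.0698, limma adjusted p = 0.0287, and up to 0.0809 when replicate 1 or 4 of wild type or 1, 2 or 3 of knockout was left out). In both genes the closest libraries of the genotypes were almost level. Spag9, a scaffold for MAP kinases, had 101.08, 107.56, 104.04 and 104.82 CPM in wild type and 108.31, 120.43, 97.37 and 103.04 CPM in knockout, with overlap throughout (95% interval of the log2 fold change -0.12 to 0.19). The other 5 were not called.

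Genes around the members were read in the same fit. Of 47 further motile axoneme genes outside the choice, 22 were lower (46.8%, against 14.3% of all genes tested) and 1 higher. Their median was -0.32 and 45 of 47 were negative, the same direction as the members. This list, too, was chosen with earlier results of these data known. Zmynd10, a dynein assembly factor, went from 8.39 ± 1.85 to 4.18 ± 0.34 CPM (limma adjusted p = 0.00117) and Ak8, an adenylate kinase of the axoneme, from 8.47 ± 0.89 to 4.71 ± 0.232 CPM (limma adjusted p = 0.000378). The exception was Fam183b, with 87.62, 83.63, 91.46 and 97 CPM in wild type and 141.76, 152.76, 161.97 and 186.95 CPM in knockout (limma adjusted p = 6.09e-05).

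Foxj1, the regulator of the motile cilium programme, had 82.36, 82.39, 90.19 and 85.39 CPM in wild type and 56.64, 47.81, 47.69 and 54.79 CPM in knockout. The knockout mean was 0.608 of the wild type mean, with no overlap (log2 fold change -0.72 ± 0.0734, limma adjusted p = 6.09e-05). Rfx1, Rfx2 and Rfx3 did not pass the test, with log2 fold changes of 0.24, 0.27 and 0.15 (adjusted p = 0.0536, 0.0702 and 0.52). Of 16 regulators tested, 5 were lower (31.25%, against 14.3% of all genes tested) and 1 higher (Plk4, limma adjusted p = 0.0376), with a median of -0.13. Lower ones included Cdc20b, of the locus that also makes microRNAs of multiciliated cells (8.96 ± 1.04 to 3.74 ± 1.15 CPM, limma adjusted p = 0.000783) and Myb (7.28 ± 1.84 to 4 ± 1.13 CPM, limma adjusted p = 0.0142). With replicate 4 of either genotype left out, 3 regulators were lower.

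Transport and tubulin genes are used by ciliated and many other cells. Over all genes tested 14.3% were lower and 16.6% higher. Of 34 intraflagellar transport and BBSome genes 6 were lower (17.6%, near that share) and 1 higher, with a median of -0.07 (3 lower without wild type replicate 3). Ift27 was the one that fell most, from 41.4 ± 1.88 to 20.6 ± 1.37 CPM (log2 fold change -0.99, limma adjusted p = 4.22e-06). Of 11 tubulins tested 3 were lower and 1 higher, with a median of -0.10 (1 lower with replicate 3 of wild type, or 3 or 4 of knockout, left out). Of 12 genes that every cell uses 1 was lower and 4 were higher, with a median of 0.11, and leaving out 1 library gave 0 to 1 lower and 2 to 5 higher (2 higher without replicate 1 or 2 of wild type or replicate 3 of knockout).

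Markers of several lung cell types were called too, where 30.9% of all genes tested were called, 14.3% lower and 16.6% higher. Lists with more than 1 gene tested ran from 25% called (proliferation) to 62.5% (alveolar type 1), with 33.3% for macrophages. Of 15 ciliated cell markers, 2 of them members and others in the lists above, 8 were lower and 1 higher, and they summed to 1798.5 to 1919.1 CPM in wild type libraries and 1395.4 to 1689.4 CPM in knockout libraries. Sec14l3 carried most of that sum (1087.7 to 1233.2 and 788.19 to 1066 CPM), and without it the sums were 631.7 to 710.9 and 607.2 to 729.9 CPM and overlapped. Of 10 club cell markers 5 were lower and 0 higher, and their sums, 86605 to 107650 and 83164 to 112950 CPM, most of it Scgb1a1, overlapped. Alveolar type 2 markers had 5 lower and 1 higher of 10, with sums of 84534 to 101200 CPM in wild type and 51343 to 63136 CPM in knockout, most of it Sftpc, and without it 17649 to 19050 and 13402 to 15469 CPM. Alveolar type 1 markers had 2 lower and 3 higher of 8, endothelial markers 0 lower and 3 higher of 7, and macrophage markers 0 lower and 2 higher of 6. Neuroendocrine markers had 2 higher of 4 tested and proliferation markers 1 of 4, none lower, and the 1 basal marker tested was not called. No marker with a row was at 0 in every library. Pifo (ciliated), Trp63, Krt5 and Krt14 (basal), Chga (neuroendocrine) and Ccnb1 (proliferation) had no row. The part of these cell types in the members' fall was not tested.

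Gene position limits some of these values. On the GENCODE annotation 16 members overlap another listed gene and 10 have one that starts within 1 kb, together 20 members, and 8 share a near-identical stretch of at least 75 bases with a listed gene. For those members reads of a neighbour may be counted in; 35 members have neither.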

How the data were processed

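CAGE tags of 8 lung libraries were deposited as 1 table of gene CPM by the authors. Per the submitters' processing notes the tools were HISAT2 2.0.5, BWA 0.7.12-r1039 and edgeR on build mm9, with no role for each. The sources used here do not give gene assignment or strand use. Low values were whole multiples of 1 read: 100% of values came out whole within 0.1 reads, and library totals followed from the step. limma 3.58.1 (R 4.3.3) with a variance trend was fitted by genotype alone to log2(CPM + 0.5) of the 14065 genes that reached 1 CPM in 4 or more of the 8 libraries, with Benjamini-Hochberg adjustment over all of them. Calls took an adjusted p under 0.05, two-sided. The log2 scale with its pseudocount understates changes of low genes. The fit was tested on simulated data. edgeR 4.0.16 and DESeq2 1.42.0 were run on the recovered reads as alternatives. edgeR called 2326 genes lower and 2247 higher, DESeq2 2266 and 2189. Within each role group the called members with the smallest adjusted p (up to 4), the most abundant member and members of at least 20 CPM that were not called are given in every library. Promoter windows came from RefSeq (GRCm38.p6), copies from blastn 2.17.0 on GENCODE transcripts (at least 97% identity). No window was found for Dnahc3, Lrrc6, Rsph1, Rsph10b2, Rsph4a, Spag1, Spata24, Spata2L and Tppp3. One member is counted in the totals and not reported singly here. Dyx1c1, listed on 2 rows with identical values, counts once. The members, role groups and gene lists were chosen with earlier results of these data known. No pair of replicates agreed within sampling noise (chi-square per gene 11.64 to 19.77).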

Additional observations from a re-analysis of the deposited data

Results flagged for a closer look

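In 4 of 114 groups of 4 libraries, 1 value of a member stood apart from the other 3 by more than Dixon's critical gap; chance flags about 5% of such groups. Spag1 was highest in knockout replicate 3 at 2.14 CPM, with the others at 1.42 to 1.54. Spag8 was highest in knockout replicate 1 at 6.43 CPM, with the others at 4.83 to 4.99. Wild type replicate 2 was lowest for Ccdc40 at 22.05 CPM, with the others at 28.11 to 29.33, and for Ccdc113 at 22.37 CPM, with the others at 25.2 to 25.75.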

How the results depend on the processing

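Over 20 alternatives, 17 of the 25 called members kept their call in each one (13 lower, 4 higher), no called member changed sign, and 5 members gained a call in at least 1. Leaving out 1 library gave 14 to 21 members lower and 4 to 5 higher, 13 to 20 ciliary members lower and 4 higher, and 19 to 22 other axoneme genes lower. The remaining alternatives (pseudocounts 0.1 and 1, other filters, scalings and tools) kept each of these counts within 1.5 times its main value. With a replicate block 21 members were lower and 5 higher. Same-numbered libraries did not deviate together (correlations 0.0434, 0.0264, -0.00287 and 0.0646), so the numbers were not taken to pair libraries. Differently numbered pairs ran from -0.134 to 0.12, and wild type replicate 1 correlated best with knockout replicate 4 (0.0492). Among smaller lists, regulators called higher ranged from 0 to 3, where the cause was not tested.

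Members not called whose log2 fold change crossed 0 were all near 0. Leaving out 1 library moved Spag16 between -0.0882 and 0.0697, Spag1 between -0.00524 and 0.161, Dnahc6 between -0.135 and 0.0241, Dnahc3 between -0.181 and 0.0496, Dnahc1 between -0.161 and 0.0221, Tppp3 between -0.0394 and 0.0787, Dnahc9 between -0.0676 and 0.102, Spata5l1 between -0.0383 and 0.200, Spag9 between -0.0213 and 0.0804, Spata5 between -0.155 and 0.0371, and the marker Riiad1 between -0.13 and 0.0127. TMM scaling gave -0.00454 for Spag16 and -0.00596 for Tppp3. Median-ratio scaling gave -0.00416 for Spag16 and -0.00557 for Tppp3. Totals without Scgb1a1 and Sftpc gave -0.0323 for Spag16, -0.034 for Tppp3, -0.0238 for Dnahc9 and -0.0117 for Spag9. Quantile normalization gave 0.00483 for Dnahc1, -0.0877 for Tppp3 and -0.0218 for Spag9. edgeR gave -0.00294 for Tppp3 and -0.00713 for Dnahc9. DESeq2 gave -0.00273 for Tppp3 and -0.00643 for Dnahc9. The cause was not tested. Dnahc7b and other members near 1 CPM rest on few reads, which limits what can be detected there.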
